A study of Mus musculus with 2 samples.

Results

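The macrophages described here carried UMIs (counted mRNA molecules) of Folr2, Cbr2 or Fcrls, alone or together. They came from MC38 tumors grown under the skin of mice. There were 848 of them among 9911 CD45-positive tumor cells that passed the limits on cell quality, and among 7322 Lyz2-positive cells. They were chosen by their own measured values. A cell needed at least 5 UMIs of Lyz2 (lysozyme, a product of myeloid cells), no UMI of Cd3d, Cd3e or Cd3g, and a sum of at least 3 UMIs over Cbr2, Folr2 and Fcrls. It also needed UMIs of fewer than 4 of the 6 proliferation genes Top2a, Mki67, Birc5, Ccna2, Ube2c and Prc1. The 7322 Lyz2-positive cells met these limits whatever their sum over Cbr2, Folr2 and Fcrls. They leave out 853 proliferating cells and 247 cells with a Cd3 UMI that also had at least 5 UMIs of Lyz2. Folr2 encodes folate receptor beta, a lipid-anchored surface protein that binds folates. Cbr2 encodes a carbonyl reductase that works with NADPH, and Fcrls a member of the Fc receptor-like family with a scavenger receptor domain.

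Macrophages with folate receptor beta live in many mouse tissues, often beside blood vessels, and also occur in tumors. They take up dead cells, debris and modified proteins through scavenger receptors such as those encoded by Mrc1 and Stab1, and degrade them in lysosomes. They also release chemokines, complement proteins and growth factors, whereas monocytes newly arrived from blood carry Ly6c2 and Vcan and, once activated, make cytokines such as interleukin 1.

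MC38 is a mouse colon carcinoma line. Female C57BL/6 mice aged 6 to 8 weeks were implanted with it, and from then on were given vehicle (control) or 5 mg/kg telmisartan into the stomach each day. Telmisartan blocks the angiotensin II receptor type 1. On day 13 the tumors were harvested, and live CD45-positive cells sorted from 5 mice per group were pooled by group. The cells received Sample Tag 1 (control) or Sample Tag 2 (telmisartan), antibody-borne barcodes that name the group of a cell. Both pools then shared 1 capture on the BD Rhapsody system, which gave a table of UMIs and a table of Sample Tag reads for the same 20726 cells. Since each group was 1 pool, mice cannot be compared within a group, and the treatment and the pool cannot be told apart. Values are therefore given for both pools with exact 95% intervals that cover counting error only, and no difference was tested.

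Cells with 10 or more reads of Sample Tags were assigned to the pool whose tag took 75% of them or more. Of these, cells with 150 to 5000 genes and no more than 20% of UMIs from mitochondrial genes were kept. They were 5078 control and 4833 telmisartan cells, of which 472 and 376 were Folr2 Cbr2 Fcrls macrophages. These macrophages held 5368118 UMIs in the control pool and 3666469 in the telmisartan pool. Their median depth was 10921.5 UMIs and 3201.5 genes per cell in the control pool, and 9145 UMIs and 2845.5 genes in the telmisartan pool. The telmisartan cells were thus the shallower ones. The other Lyz2-positive cells, 3398 and 3076 in number, were shallower still, with medians of 8892 and 6676 UMIs. Mitochondrial genes took 8.92% of the UMIs of these macrophages in the control pool and 9.04% in the telmisartan pool, against 7.12% and 7.82% in the other Lyz2-positive cells. Before the limits on quality, the median cell assigned to a pool had 12.1% mitochondrial UMIs in the control pool and 23.3% in the telmisartan pool, and 2623 control and 4433 telmisartan cells were over the mitochondrial limit. The mitochondrial share of assigned cells thus differed between the pools. Cells with a mixture of both tags were left out, but doublets within a tag cannot be seen in this way and were kept.

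The share of Folr2 Cbr2 Fcrls macrophages among Lyz2-positive cells was slightly lower in the telmisartan pool, but how the pools compared depended on the limits used. They made up 472 of 3870 Lyz2-positive cells in the control pool, or 12.2% (11.2 to 13.3%) with its Clopper-Pearson interval, and 376 of 3452, or 10.9% (9.87 to 11.98%), in the telmisartan pool. The intervals overlap. After each cell was thinned at random to 2000 UMIs, 2.85% of control and 2.02% of telmisartan cells still had a sum of at least 3, which is lower in the telmisartan pool. A sum of at least 1 after thinning was found in 12.95% and 14.98%, which is the opposite order at a lower threshold. Thinning left out 118 control and 140 telmisartan cells with fewer UMIs, 1 and 2 of them Folr2 Cbr2 Fcrls macrophages. With a mitochondrial limit of 10% the share was 9.88% in both pools.

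The genes that chose the cells were not spread evenly among them. Fcrls had a UMI in 368 of the 472 control cells (77.97%) and in 234 of the 376 telmisartan cells (62.2%). Folr2 had a UMI in 71.4% and 75.5%, and Cbr2 in 42.6% and 42.6%. Cbr2 was thus the gene that the fewest of these cells carried. UMIs of all 3 genes were found together in 110 control cells (23.3%) and 67 telmisartan cells (17.8%), whereas 148 and 141 cells entered through 1 gene. The most common pair was Folr2 with Fcrls and without Cbr2, in 133 and 85 cells.

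The levels of these genes reflect the choice of the cells by their sum, so they are given as a description of what was chosen. Summed over these macrophages, Folr2 had 228 CPM in the control pool and 329 in the telmisartan pool, where CPM is UMIs per 1000000 UMIs of the same cells. Cbr2 had 161 and 119 CPM and Fcrls 367 and 257 CPM. The median sum over these genes was 6 UMIs per control cell and 5 per telmisartan cell, and the highest 56 and 36. A sum of at least 10 was found in 134 control and 75 telmisartan cells. The genes lie on different chromosomes of the GRCm38 genome, Folr2 at chr7:101839988-101857194, Cbr2 at chr11:120729489-120732114 and Fcrls at chr3:87250758-87263738, each on the minus strand.

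RNA set free from broken cells can give a UMI to a cell that does not make it. In T cells, defined by at least 2 Cd3 UMIs and fewer than 5 of Lyz2, a UMI of Folr2, Cbr2 or Fcrls was found in 4 of 127 cells (3.15%, median depth 2888 UMIs). In dendritic cells, defined by Flt3 and Zbtb46, it was found in 11 of 167 (6.59%, median 6616), and in neutrophils, defined by S100a8 or S100a9 with Cxcr2 or Csf3r, in 2 of 31 (6.45%, median 1916). None of these cells reached a sum of 3. Counted as 3 cells, a count of 0 allows shares of up to 2.36%, 1.80% and 9.68%, and the Clopper-Pearson upper limits are 2.86%, 2.18% and 11.2%. Among all kept cells with fewer than 5 Lyz2 UMIs, a sum of at least 3 was found in 10 of 1489 (0.672%), at a median depth of 2510 UMIs. These cells were shallower than the macrophages, so the background at the depth of the macrophages was not measured. Apoe, which encodes the apolipoprotein that carries cholesterol out of macrophages, was found more widely: 36.2% of T cells and 40.7% of dendritic cells had a UMI, against 97.6% of these macrophages at a median of 10244 UMIs. Mrc1 was found in 4.72% of T cells and 9.58% of dendritic cells, and Ccl8 in 3.15% and 2.40%.

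Genes that played no part in the choice also gave the picture of macrophages. All 12 genes of a macrophage list were detected, with a summed level of 14338 CPM in the control pool and 14066 in the telmisartan pool, against 8763 and 9335 in the other Lyz2-positive cells. C1qb, a chain of the complement protein that starts the classical pathway, was the most abundant of them at 3353 and 3198 CPM. Adgre1, which encodes the macrophage antigen F4/80, had 297 and 292 CPM, and Csf1r, the receptor that macrophages need to survive, 829.7 and 711 CPM. Apoe and Ccl8, both named as markers of these cells, had 3262 and 5827 CPM and 186 and 136 CPM. A sum of at least 10 UMIs over C1qa, C1qb and C1qc was reached by 94.3% of these macrophages in the control pool and 90.4% in the telmisartan pool, and by 51.1% and 46.8% of the other Lyz2-positive cells.

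Markers of long-lived resident macrophages were split. The 6 genes of this list were all detected and came to 278 and 264 CPM, against 84.1 and 135 in the other Lyz2-positive cells. Most of this was Cx3cr1, the fractalkine receptor, with 1153 and 709 UMIs, and Siglec1, with 329 and 249, whereas the rest of the list was near the detection limit. Timd4, a receptor for dead cells, had 0 UMIs in the control pool and 3 in the telmisartan pool. Vsig4, a complement receptor, had 0 and 1, and Marco, a scavenger receptor, 1 and 0. Lyve1, the hyaluronan receptor found on perivascular macrophages, had 11 and 5 UMIs, and Cd163, the hemoglobin scavenger receptor, 10 and 1. A sum of 3 UMIs equals 0.559 CPM in the control pool and 0.818 in the telmisartan pool. The cells thus carried Mrc1, Stab1, Cx3cr1 and Siglec1, but Lyve1, Timd4, Vsig4 and Cd163 at few UMIs or none.

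Markers of other cell types were sparse. Of 8 T cell genes 5 were detected, with 38 and 31 UMIs in all (7.08 and 8.46 CPM), Trbc2 the most abundant with 14 and 8; Cd3d, Cd3e and Cd3g were at 0 by the choice of the cells. All 8 dendritic cell genes were detected, at 11.9 and 23.5 CPM, led by Ccr7 with 19 and 26 UMIs. In the other Lyz2-positive cells dendritic genes stood at 39.1 and 44.9 CPM, neutrophil genes at 109 and 111, T cell genes at 6.38 and 8.11, endothelial genes at 22.9 and 20.01, and fibroblast genes at 7.08 and 12.1. These macrophages thus held less of dendritic and neutrophil genes, and fibroblast, T cell and endothelial genes were not lower in them. Natural killer genes stood at 7.30 and 8.11 CPM in the other cells, tumor epithelial genes at 3.49 and 0.901, and red blood cell genes at 4.88 and 0.992. These lists, counted below, were also lower in the macrophages, on few UMIs. All 6 neutrophil genes were detected, at 47.5 and 53.5 CPM, led by Csf3r with 108 and 71 UMIs. Endothelial genes, 3 of 4, came to 23.1 and 27 CPM, nearly all Pecam1 with 114 and 80 UMIs, which myeloid cells also make; Cldn5 was at 0. Fibroblast genes, 5 of 6, had 56 and 61 UMIs (10.4 and 16.6 CPM), led by Col3a1 with 26 and 23, and Pdgfra was at 0. Natural killer genes, 4 of 4, had 22 and 19 UMIs (4.10 and 5.18 CPM), led by Klrd1 with 15 and 16. The lists for mast cells (2 of 4 detected), tumor epithelium (2 of 5) and red blood cells (4 of 5) had 2, 6 and 10 UMIs in the control pool and 0, 0 and 2 in the telmisartan pool. Their most abundant genes were Cpa3, Epcam with 5 and 0 UMIs, and Hba-a1, while Mcpt4, Tpsb2, Krt8, Krt18, Krt19 and Alas2 were at 0.

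Compared with the other Lyz2-positive cells of the same pool, Folr2 Cbr2 Fcrls macrophages held more mRNA of Gas6, Mrc1 and Stab1, which act in uptake, of the C1q genes and of the chemokine genes Ccl8 and Ccl12. They held less of monocyte genes, inflammatory cytokines and the genes of antigen presentation on MHC class II. Gas6, which bridges dying cells to the receptors Mertk and Axl, had the highest ratio among genes with at least 200 UMIs outside the rule genes. It was at 34.5 CPM against 1.64 in the control pool and 28.9 against 2.34 in the telmisartan pool. The log2 ratios were 4.40 (3.95 to 4.87) and 3.62 (3.13 to 4.13). Most of these macrophages had no Gas6 UMI. It was found in 98 of 472 control (20.8%) and 67 of 376 telmisartan macrophages (17.8%), and in 1.21% and 1.33% of the other Lyz2-positive cells. Both sets of cells came from the same libraries and were split by measured values, so these numbers describe and do not test. Of 10904 genes with at least 100 UMIs, 182 (1.67%) were at least 2-fold higher in both pools and 157 (1.44%) at least 2-fold lower, and the median log2 ratio over all of them was 0.08 in the control pool and 0.03 in the telmisartan pool. The split depended on the scaling. UMIs per cell without scaling gave 497 higher and 75 lower, with medians of 0.36 and 0.46, and TMM factors, a scaling by the bulk of genes, 140 and 202, with medians of -0.06 and -0.08.

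**Figure D1:**
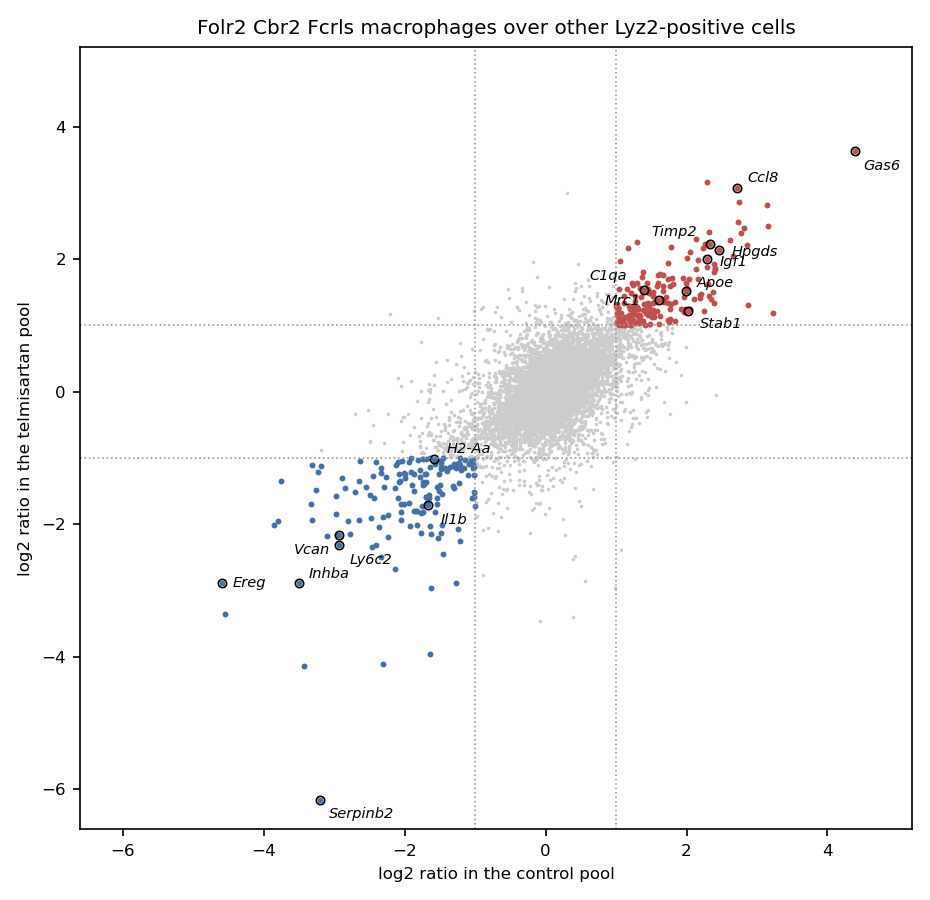
Each point is a gene with at least 100 UMIs, placed by its log2 ratio of CPM in Folr2 Cbr2 Fcrls macrophages over the other Lyz2-positive cells, in the control pool (horizontal) and the telmisartan pool (vertical). Red and blue points are at least 2-fold higher or lower in both pools, dotted lines mark 2-fold, and Gas6 lies farthest to the upper right at 4.40 and 3.62.

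The genes that stood highest above the other Lyz2-positive cells included genes of secreted, surface and intracellular proteins. Among them was Ctla2a, which encodes an inhibitor of cathepsin L, at log2 ratios of 3.14 in the control pool and 2.81 in the telmisartan pool. Cspg4, the membrane proteoglycan NG2, stood at 2.74 and 2.85, and Ccl8, a chemokine for monocytes and T cells, at 2.72 and 3.07. Ccl8 reached 186 CPM against 28.4 in the control pool and 136 against 16.2 in the telmisartan pool. Timp2, an inhibitor of metalloproteinases, stood at 2.33 and 2.23 and Serpinb6a, an inhibitor of serine proteases, at 2.62 and 2.28. Igf1, insulin-like growth factor 1, stood at 2.29 and 1.99 and Igfbp4, which encodes a protein that binds it, at 2.85 and 2.22. Hpgds, the synthase that makes prostaglandin D, had 2.46 and 2.14, and Vcam1, an adhesion molecule bound by integrins, 2.13 and 2.30. Fcgrt, the neonatal Fc receptor that protects antibodies from degradation, had 2.16 and 1.98. Other genes of the 15 highest included Scamp5 (2.73 and 2.56), a vesicle protein, Col14a1 (2.82 and 2.47), a collagen, and Inpp4b (2.05 and 2.11), a phosphoinositide phosphatase.

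Genes known for macrophages with folate receptor beta were higher as a group where they had enough UMIs. Of the 16 genes of this list, 12 had enough UMIs, whereas Lyve1, Cd163, Timd4 and Vsig4, at few UMIs or none, did not. Of the 12 genes, 10 were at least 2-fold higher in both pools. The list medians were 2.01 and 1.39 and kept their sign under each scaling. Apoe had 3262 CPM against 818 in the control pool and 5827 against 2041 in the telmisartan pool, log2 ratios of 1.99 and 1.51. Stab1, a scavenger receptor of macrophages and vessel walls, had 2.02 and 1.21, Mrc1, the mannose receptor CD206, 1.61 and 1.38, and Selenop, a selenium carrier, 2.04 and 1.69. Pf4, also called Cxcl4, had 1.84 and 1.36, and Siglec1, a receptor for sialic acid, 2.19 and 1.41. The transcription factor Maf had 1.61 and 1.02. F13a1, the coagulation factor XIII chain made by macrophages, had 1.30 and 0.79. Cx3cr1 was at 215 CPM against 69.1 in the control pool and 193 against 107 in the telmisartan pool, so its gap was smaller in the telmisartan pool.

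Uptake and digestion genes beyond these were mostly somewhat higher. Of 10 complement genes tested, 3 were at least 2-fold higher, namely C1qa (1.40 and 1.53), C1qb (1.22 and 1.14) and C1qc (1.53 and 1.44), whose genes lie side by side on chromosome 4. The receptors for C3a and C5a, C3ar1 and C5ar1, had 0.66 and 0.59 and 0.88 and 0.64, and C3 itself was lower at -1.57 and -0.84. In the list for scavenger receptors and uptake of dead cells, 3 of 16 were at least 2-fold higher (Mrc1, Stab1, Gas6). Mertk, the receptor for Gas6, had 1.27 and 0.95, but Axl, its relative, was lower at -0.71 and -0.40. Among 20 lysosomal genes 1 passed 2-fold, Ctsb (cathepsin B, 1.40 and 1.32), and 16 were above 0 in both pools, with medians of 0.27 and 0.33. In lipid handling, 4 of 19 genes passed 2-fold. These were Apoe, Fabp4 (1.57 and 1.35) and Fabp5 (1.35 and 1.14), carriers of fatty acids, and Ch25h (2.20 and 1.48), the enzyme that turns cholesterol into an oxysterol.

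Genes that share a function with the rule genes were also examined. The folate transporter gene Slc46a1, which works at acid pH, was higher at 1.67 and 1.52, on 29 and 18 UMIs, and Shmt1, a folate enzyme of the cytosol, at 1.52 and 1.51, on 34 and 16. They were the 2 of 12 folate genes past 2-fold, and after thinning Shmt1 was at -0.29 in the control pool. All 6 carbonyl-reducing enzymes tested were above 0 in both pools, with medians of 0.90 and 0.71. Dcxr, which like Cbr2 belongs to the short-chain dehydrogenases, passed 2-fold at 1.20 and 1.13. Of 7 Fc receptor genes tested, 1, Fcgrt, passed 2-fold, and 5 were above 0 in both pools. Fcgr1, Fcgr2b, Fcgr3 and Fcgr4 stood between -0.07 and 0.45. The list median of 0.03 and 0.06 turned to -0.11 and -0.04 with TMM factors.

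Chemokine genes were split between higher and lower. Of 20 chemokine genes 3 were at least 2-fold higher in both pools, Ccl8, Ccl12 (2.35 and 1.40) and Pf4. Ccl7 had 1.65 and 0.69 and Ccl2 0.99 and 0.12; with Ccl12 and Ccl8 they attract monocytes through Ccr2 and related receptors and share a stretch of chromosome 11, from 82035571 to 82116799. In level, Ccl2 reached 2013 CPM and Ccl12 1365 CPM in the control pool. Cxcl3, which attracts neutrophils, was the gene past 2-fold in the other direction at -1.83 and -1.80. The list median was -0.13 and 0.05, and turned to 0.15 in the control pool without scaling and to -0.06 in the telmisartan pool with TMM factors. Growth factor genes were split, with Pdgfc (2.04 and 1.25), Gdf15 (1.29 and 2.25), Igf1 and Gas6 past 2-fold higher and the epidermal growth factor receptor ligands Areg (-1.82 and -1.04) and Ereg past 2-fold lower.

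The lowest genes relative to the other Lyz2-positive cells were of several kinds, among them the monocyte antigen gene Ly6c2 and genes of secreted factors. Serpinb2, an inhibitor of plasminogen activators, had 7 UMIs in the control pool and 1 in the telmisartan pool, which are 1.30 CPM against 11.95 and 0.273 against 19.4. Its log2 ratios were -3.20 (-4.52 to -2.14) and -6.15 (-11.46 to -3.67), the latter wide because it rests on 1 UMI. Ereg, which encodes epiregulin, had 4 and 3 UMIs and log2 ratios of -4.59 (-6.47 to -3.23) and -2.88 (-5.18 to -1.31). Inhba, a subunit of activin, had -3.50 and -2.88, Hp, the hemoglobin-binding haptoglobin, -2.47 and -2.34, and Itga1, a subunit of a collagen-binding integrin, -2.23 and -2.20. Ly6c2, the antigen of inflammatory monocytes, had 11.4 CPM against 86.4 in the control pool and 43.9 against 218 in the telmisartan pool, log2 ratios of -2.93 and -2.31. The other genes of the 10 lowest were Gm48444 (-4.54 and -3.35) and Gm9733 (-3.43 and -4.14), predicted genes, the long noncoding RNA Mirt2 (-2.30 and -4.10) and Ccdc80 (-3.10 and -2.17), a matrix-bound protein.

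All 9 monocyte genes tested were below 0 in both pools, 5 of them past 2-fold, with medians of -1.48 and -1.80. Vcan, a matrix proteoglycan of monocytes, had -2.92 and -2.16, Chil3 -2.04 and -1.82 and Plac8 -1.48 and -2.14. Inflammatory genes showed the same direction, with 11 of 11 below 0, 6 past 2-fold and medians of -1.35 and -1.14. Il1b, the cytokine interleukin 1 beta, had 1035 CPM against 3286 in the control pool and 1215 against 3976 in the telmisartan pool. Nos2, the inducible nitric oxide synthase, had -2.31 and -1.88, Il1a -1.71 and -1.25, and Clec4e, a receptor for microbial and cell debris, -1.35 and -1.14. Both list directions were kept under each scaling.

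Antigen presentation on MHC class II was lower, with a gap that differed between the pools. H2-Aa, a class II chain, had 1136 CPM against 3403 in the control pool and 1163 against 2365 in the telmisartan pool. The log2 ratios were -1.58 (-1.62 to -1.55) and -1.02 (-1.07 to -0.98). Cd74, the invariant chain, had -1.36 and -0.98, and Ciita, the factor that switches class II genes on, -2.07 and -1.25. All 9 genes of the list were below 0 in both pools and 3 past 2-fold, with medians of -1.45 and -0.99. Cxcl9, a chemokine induced by interferon gamma, was at 417 CPM against 974 in the control pool but level with them in the telmisartan pool, at 422 against 417. Spp1, or osteopontin, had -0.68 and -0.31, and without scaling 0.12 in the telmisartan pool.

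Responses to low oxygen and to type I interferon were at or below the level of the other Lyz2-positive cells. In the hypoxia list 10 of 12 genes were below 0 in both pools and 1, Egln3, an oxygen-sensing hydroxylase, was past 2-fold at -1.64 and -1.13. The list medians were -0.65 and -0.27, the latter 0.16 without scaling. Of 14 type I interferon genes 0 passed 2-fold, and their medians were -0.19 in the control pool, 0.09 without scaling, and -0.79 in the telmisartan pool. Genes of DNA replication were higher although proliferating cells had been left out: 14 of 15 were above 0 in both pools and 1, Cdc6, a loader of the replicative helicase, was past 2-fold at 1.08 and 1.01. Their medians were 0.86 and 0.44.

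The 15 highest and 10 lowest genes kept their direction, most with smaller ratios, against those of the other Lyz2-positive cells that had at least 10 UMIs of C1q genes, 1736 control and 1439 telmisartan cells. This set was chosen after seeing the data. Against it 79 genes were at least 2-fold higher and 54 lower in both pools. Gas6 had log2 ratios of 3.72 and 2.87, Ccl8 2.05 and 2.47, Mrc1 1.31 and 1.02, and H2-Aa -1.79 and -0.96. Several genes past 2-fold in both pools against all other Lyz2-positive cells were short of it against this set. Among them were Cxcl3 at -0.50 and -0.78 and Clec4e at -0.86 and -0.84 in both pools, Plac8 at -0.58 in the control pool, and Ccl12 at 0.96 in the telmisartan pool. Of the 10 genes of the list for macrophages with folate receptor beta that had passed 2-fold, 5 were short of it in the telmisartan pool, Apoe at 0.99, Pf4 at 0.97, Stab1 at 0.94, Siglec1 at 0.93 and Maf at 0.89. The C1q genes chose this set and are not compared with it.

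Lyz2-positive cells were grouped by their rule-gene sum into steps of 0, 1, 2, 3 to 4, 5 to 9, and 10 or more. Several genes were higher at each further step in both pools, among them Mrc1, Stab1, Selenop, Pf4, Maf, Timp2, C1qa and C1qb. Selenop went from 141 to 1032 CPM in the control pool and from 162 to 859 in the telmisartan pool. Apoe, Ccl8 and Vcan were less regular. Mrc1 in the control pool was at 299 CPM in cells with no such UMI, 636 at a sum of 2, 686 at a sum of exactly 3 and 1363 at 10 or more. In the telmisartan pool it was at 215, 492, 490.3 and 782. Mrc1 was therefore close in cells just outside and just inside the threshold. So was Apoe, with 2338 CPM just outside and 2571 just inside in the control pool, and 5059.7 and 5037 in the telmisartan pool. Ccl8 was not, with 135 CPM just outside and 73.6 just inside in the control pool, and 39.9 and 145 in the telmisartan pool. Nor was Vcan, with 59.3 and 19.9 CPM and 71.9 and 19.3. Apoe in the telmisartan pool was at 6037 CPM at sums of 5 to 9 and 5317 at 10 or more, so it did not keep climbing. Cells with a sum of 2 numbered 160 and 157, and those with a sum of exactly 3 106 and 101. The median depth was 8540 UMIs at a sum of 0 and 10738 at 10 or more in the control pool. In cells thinned to 2000 UMIs, still grouped by their whole sums, Mrc1 was at 268 and 1332 CPM at these sums in the control pool and 215 and 797 in the telmisartan pool.

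The pools differed in the course of some genes along these steps. Stab1 climbed from 194 to 1437 CPM in the control pool and from 245 to 789 in the telmisartan pool. Gas6 went from 0.736 to 60.6 CPM and from 1.21 to 53.1, much alike in both. At a sum of 2 Gas6 was at 4.15 CPM in the control pool and 9.25 in the telmisartan pool, and at 3 to 4 at 11.7 and 18.3. H2-Aa declined from 3571 CPM to 457 in the control pool, while in the telmisartan pool it went from 2599 to 1160.0 at a sum of 2, 1056 at 5 to 9 and 1299 at 10 or more. Il1b declined from 3539 to 653 CPM in the control pool and from 4396 to 1115 in the telmisartan pool. The cells with the most rule-gene UMIs in the control pool were thus the ones with the least H2-Aa and Il1b and the most Stab1.

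**Figure D2:**
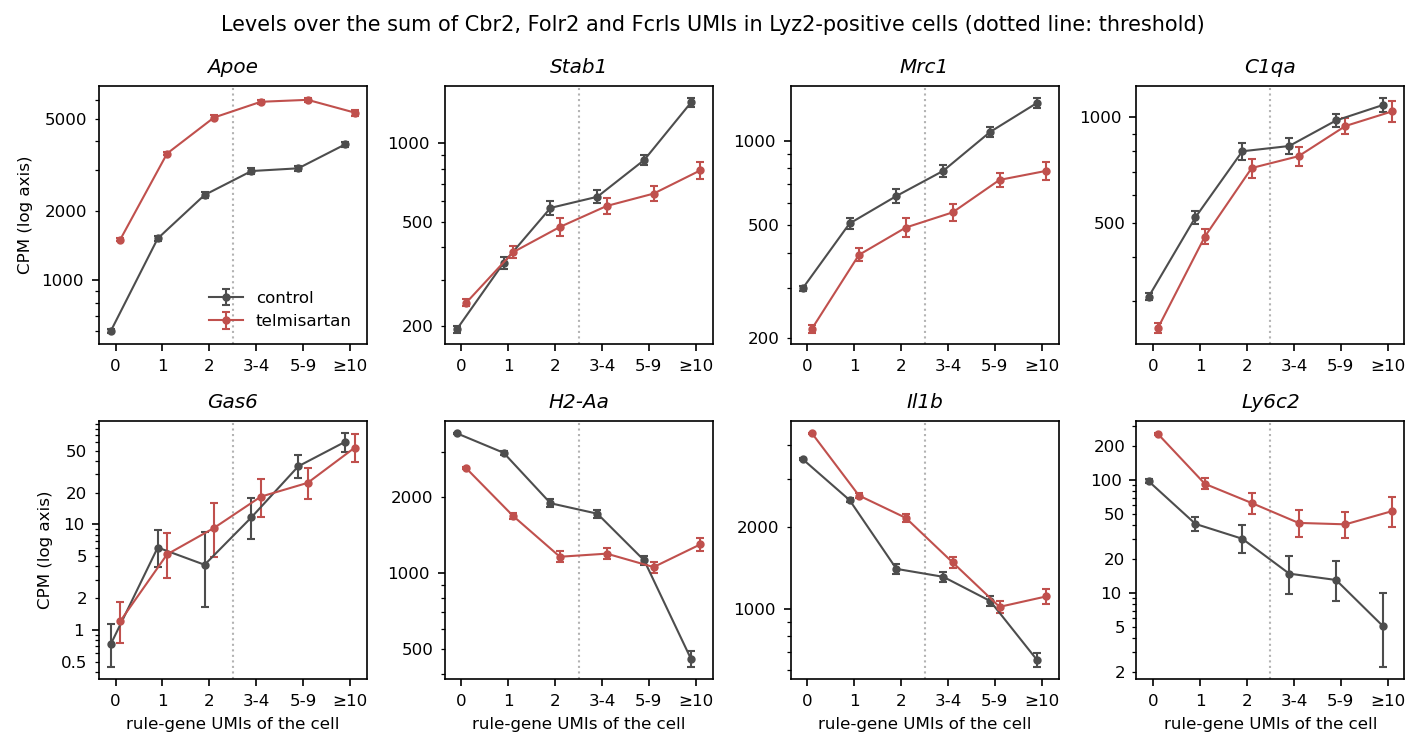
CPM of 8 genes (log axes) in Lyz2-positive cells grouped by their summed UMIs of Cbr2, Folr2 and Fcrls, for the control pool (grey) and the telmisartan pool (red); bars are exact Poisson 95% intervals and the dotted line marks the threshold. In the control pool H2-Aa is at 3571 CPM at a sum of 0 and 457 at 10 or more, while Stab1 goes from 194 to 1437.

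Between the pools, Folr2 Cbr2 Fcrls macrophages from telmisartan-treated mice held at least 2-fold more mRNA of the nuclear receptors Nr4a3 and Nr4a2, of the cytokines Gdf15 and Il10, and of Cxcl1. They held at least 2-fold less of the chemokine Ccl24 and of 3 genes for DNA replication. Apoe and Nr4a1 were higher, and Ccl12, Mrc1 and Stab1 lower, by less than 2-fold. Nr4a3, an orphan nuclear receptor that is switched on rapidly by stimuli, had 59.2 CPM in the control pool and 214 in the telmisartan pool, a log2 ratio of 1.85 (1.66 to 2.05). Of 7526 genes with at least 100 UMIs in these cells, 76 (1.01%) were at least 2-fold higher in the telmisartan pool and 31 (0.412%) at least 2-fold lower. The median log2 ratio over all of them was -0.06, and the medians of gene lists below are to be read beside it. With a mitochondrial limit of 10% the counts were 82 higher and 43 lower. Of the 76 genes 71 were also above 0 in the other Lyz2-positive cells, 30 of them past 2-fold, and of the 31 genes 30 were also below 0, 2 past 2-fold. Without scaling, the counts were 38 and 109 with a median of -0.29, and in cells thinned to 2000 UMIs 30 and 6.

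**Figure D3:**
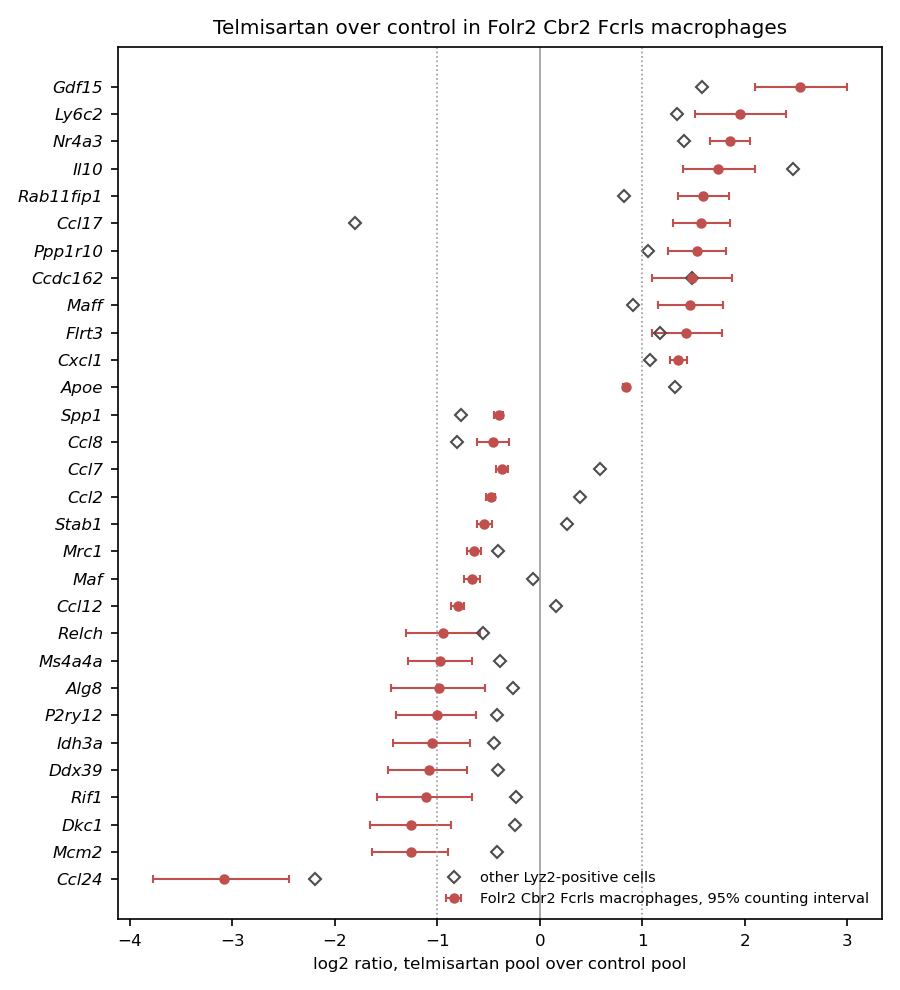
Log2 ratio of CPM, telmisartan pool over control pool, for named genes in Folr2 Cbr2 Fcrls macrophages (red, with exact 95% counting intervals) and in the other Lyz2-positive cells (open diamonds); dotted lines mark 2-fold. Gdf15 is highest at 2.54, with UMIs in 23 control and 34 telmisartan macrophages. Ccl24 is lowest at -3.08, with UMIs in 35 and 13, and the ratio of Ccl17 rests on few cells.

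Among genes with at least 200 UMIs, the 10 with the highest ratios were led by Gdf15, a stress-induced cytokine of the transforming growth factor family. It had 9.87 CPM in the control pool and 57.3 in the telmisartan pool, a log2 ratio of 2.54 (2.10 to 2.999), and 1.58 in the other Lyz2-positive cells. A Gdf15 UMI was found in only 23 of 472 control and 34 of 376 telmisartan macrophages. Ly6c2, the monocyte antigen, came next with 11.4 and 43.9 CPM, a log2 ratio of 1.95 (1.52 to 2.40), and UMIs in 37 and 65 macrophages. Il10, a cytokine that restrains macrophage activation, had 18.4 and 61.6 CPM, 1.74 (1.39 to 2.10), and 2.47 in the other Lyz2-positive cells. Its UMIs lay in 24 control and 43 telmisartan macrophages, and without the 5 richest cells of each pool its ratio was 2.49. The other NR4A receptors were higher as well: Nr4a2 had 92.6 and 244 CPM, 1.40 (1.24 to 1.56), and Nr4a1 374 and 695 CPM, 0.89 (0.81 to 0.98). Maff, a small partner of leucine zipper factors, had 24.2 and 67.1 CPM, 1.47 (1.16 to 1.79), Rab11fip1, an effector of recycling endosomes, 38 and 115 CPM, 1.60 (1.35 to 1.84), and Ppp1r10, a nuclear partner of protein phosphatase, 29.99 and 86.7 CPM, 1.53 (1.25 to 1.81). Ccdc162 had 15.8 and 44.2 CPM, and Flrt3, a membrane protein with leucine-rich repeats, 21.1 and 56.7 CPM. These genes, other than Ccl17, were also higher in the telmisartan pool in the other Lyz2-positive cells.

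Ccl17, a chemokine for T cells carrying Ccr4, rested on a handful of cells. It had 30.2 CPM in the control pool and 90 in the telmisartan pool, a log2 ratio of 1.58 (1.30 to 1.86), but 5 cells held 79.6% of its UMIs in the control pool and 91.8% in the telmisartan pool. Without these 5 cells of each pool, a step chosen after seeing the data, the ratio was 0.28, and in cells with at least 2 of the 3 rule genes it was -0.98. No direction can be read for Ccl17 in these macrophages.

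The 10 lowest ratios were led by Ccl24, a chemokine for eosinophils. It had 50.7 CPM in the control pool and 6 in the telmisartan pool, a log2 ratio of -3.08 (-3.78 to -2.45), with 272 and 22 UMIs. Its UMIs too were concentrated, with 77.2% and 63.6% in 5 cells, but without those the ratio was -2.40, and it was -2.20 in the other Lyz2-positive cells. Mcm2, a subunit of the replicative helicase, had 52.9 and 22.1 CPM, -1.26 (-1.63 to -0.90). Dkc1, the pseudouridine synthase dyskerin, had 45.5 and 19.1 CPM, -1.25 (-1.66 to -0.86), and Rif1, a regulator of replication timing and DNA break repair, 31.3 and 14.5 CPM, -1.11 (-1.59 to -0.66). Ddx39, an RNA helicase of mRNA export, had -1.08, Idh3a, a subunit of mitochondrial isocitrate dehydrogenase, -1.05, and Alg8, an enzyme of protein glycosylation, -0.98. Surface and membrane genes of macrophages were in this set as well, with the ADP receptor gene P2ry12 at 41.5 and 20.7 CPM, -1.003 (-1.40 to -0.62), and Ms4a4a, a tetraspan membrane protein, at 62.03 and 31.6 CPM, -0.97 (-1.29 to -0.66). Relch, which acts in cholesterol transport from recycling endosomes, had -0.94. All 10 were below 0 in the other Lyz2-positive cells, and those other than Ccl24 had ratios there between -0.55 and -0.23.

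The genes that mark these macrophages were mostly lower in the telmisartan pool. Of 12 genes of the list tested, 3 were above 0 and 9 below, 0 past 2-fold, with a median of -0.20 against 0.27 for the same genes in the other Lyz2-positive cells. Apoe, against this direction, was higher in the telmisartan pool, with 3262 and 5827 CPM, 0.84 (0.81 to 0.87), and 1.32 in the other Lyz2-positive cells. Mrc1, which the study names, was lower at 1056 and 676 CPM, -0.64 (-0.71 to -0.58), and -0.41 in the others. Stab1 was lower at 947 and 651 CPM, -0.54 (-0.61 to -0.47), but 0.26 in the others, and Maf at 803 and 509 CPM, -0.66 (-0.74 to -0.58), but -0.06. Spp1, also named in the study, had 2416 and 1832 CPM, -0.40 (-0.44 to -0.36), and -0.77 in the others. Whether the cell sets differ in these ratios was not tested. Pf4 (1793 and 1622 CPM), Selenop (703 and 667 CPM) and the C1q genes, such as C1qa (958 and 904 CPM), were close in level in both pools. Of 8 monocyte genes tested, 7 were above 0, 1 of them past 2-fold. Their median was 0.09, against -0.08 in the other Lyz2-positive cells, and it was -0.13 without scaling.

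Summed over these macrophages, the 4 monocyte-attracting chemokine genes of chromosome 11 all had lower CPM in the telmisartan pool. Ccl12 had 1365 and 784 CPM, -0.80 (-0.86 to -0.74), Ccl2 2013 and 1443 CPM, -0.48 (-0.53 to -0.43), and Ccl7 1233 and 954 CPM, -0.37 (-0.43 to -0.31). Ccl8 had 186 and 136 CPM, -0.46 (-0.61 to -0.30), but a UMI of it was found in 25.4% of control and 30.1% of telmisartan macrophages. At rule-gene sums of 10 or more Ccl8 was at 340.5 and 132 CPM. At sums of 5 to 9 it was at 120 and 153 CPM, and at 3 to 4 at 125 and 120. In the other Lyz2-positive cells Ccl12 had a log2 ratio of 0.15, Ccl2 0.39 and Ccl7 0.59, while Ccl8 had -0.81. The difference between the cell sets was not tested. Neutrophil-attracting chemokines were split. Cxcl1 had 335 and 855 CPM, 1.35 (1.27 to 1.43), and Cxcl2 2446 and 3132 CPM, but Cxcl3 152 and 86.5 CPM. Over the 20 chemokine genes tested 10 were above 0 and 10 below, 2 past 2-fold higher (Cxcl1, Ccl17) and 1 lower (Ccl24), with a median of -0.06.

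Inflammatory genes were higher in the telmisartan pool, 9 of 9 tested being above 0, with a median of 0.45 against 0.24 in the other Lyz2-positive cells. None passed 2-fold. Nlrp3, the sensor of an inflammasome, had 350.0 and 666 CPM, 0.93 (0.84 to 1.02), and Tnf 77.3 and 138 CPM, 0.84 (0.65 to 1.03). Ptgs2, the inducible cyclooxygenase, had 484 and 691 CPM, 0.51 (0.43 to 0.59). Il1rn, the natural antagonist of interleukin 1, was also higher, with 669 and 1202 CPM, 0.85 (0.78 to 0.91). A list of anti-inflammatory and checkpoint genes was split, 8 above 0 and 5 below, with a median of 0.10 that was -0.12 without scaling, and 1, Il10, past 2-fold.

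All 11 hypoxia genes tested were above 0, with a median of 0.37 against 0.06 in the other Lyz2-positive cells, and none passed 2-fold. Vegfa, the growth factor for blood vessels, had 405 and 651 CPM, 0.69 (0.60 to 0.77). Hk2, a hexokinase of glycolysis, had 78.8 and 139.9 CPM, 0.83 (0.64 to 1.02), Ndrg1 83.3 and 144 CPM, 0.79 (0.61 to 0.98), and Bnip3, which acts in removal of mitochondria, 203 and 305 CPM, 0.59 (0.47 to 0.71). Lipid genes were mostly higher too, 13 of 16 above 0 with a median of 0.24. Gpnmb, a membrane glycoprotein of lipid-laden macrophages, passed 2-fold with 19.4 and 43.9 CPM, 1.18 (0.82 to 1.55). The cholesterol exporter gene Abcg1 had 28.1 and 53.7 CPM, 0.93 (0.62 to 1.25), Pltp, a phospholipid transfer protein, 89.6 and 145 CPM, 0.70 (0.52 to 0.88), and the fatty acid receptor gene Cd36 99.7 and 182 CPM, 0.87 (0.71 to 1.04). Ch25h was lower at 193 and 104 CPM, -0.89 (-1.06 to -0.72). The hypoxia, inflammatory and lipid medians kept their sign under each scaling.

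Type I interferon genes were higher in these macrophages, 9 of 11 above 0 with a median of 0.61, beside 1.09 for the same genes in the other Lyz2-positive cells. Slfn4 had 45.6 and 106 CPM, 1.22 (0.98 to 1.45), and Oasl1, a member of the oligoadenylate synthase family, 13.4 and 31.9 CPM, 1.25 (0.81 to 1.69), the 2 genes past 2-fold. Without the 5 cells of each pool richest in it, Slfn4 was at 0.93, short of 2-fold, and Oasl1 likewise at 1.05, past it. Rsad2, or viperin, had 32.4 and 54.5 CPM. Interferon gamma genes showed no common direction, with 6 above 0 and 7 below and a median of -0.14. The gene past 2-fold was Serpina3g, a serine protease inhibitor, lower at 24.6 and 6 CPM, -2.03 (-2.76 to -1.38). Cxcl9 was level at 417 and 422 CPM, while in the other Lyz2-positive cells it was at 974 and 417. H2-Aa was level too when summed over these macrophages, at 1136 and 1163 CPM, against 3403 and 2365 in the others. By rule-gene sum H2-Aa was at 1717 and 1193 CPM at 3 to 4, 1122 and 1056 at 5 to 9, and 457 and 1299 at 10 or more. The class II list had a median of -0.09 beside -0.52.

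DNA replication genes were lower in the telmisartan pool. All 13 tested were below 0, with a median of -0.65 against -0.36 in the other Lyz2-positive cells. The sign was kept under each scaling, but in cells of 5000 to 15000 UMIs, a range chosen after seeing the data, the median was -0.32. Mcm2, Tyms, the synthase that makes thymidylate with a folate cofactor, and Dut, which clears dUTP, were the 3 past 2-fold, Tyms at 17.5 and 7.91 CPM, -1.15 (-1.80 to -0.53), and Dut at 21.8 and 10.4 CPM, -1.07 (-1.64 to -0.53). Mcm5, another helicase subunit, had 65.8 and 34.4 CPM, -0.94 (-1.24 to -0.64). Of the mitotic genes outside the rule 4 of 14 had enough UMIs, all below 0. Ccnb2, cyclin B2, had 25.7 and 12.3 CPM, -1.07 (-1.59 to -0.57), and Cenpe, a kinetochore motor, 17.3 and 8.46 CPM, -1.03 (-1.67 to -0.43); with proliferating cells kept, Cenpe was at 0.15. The cells had been selected for fewer than 4 proliferation genes with a UMI, so these values describe the cells that remained.

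Transcription factors, the NR4A genes among them, were mostly higher, 14 of 20 above 0 with a median of 0.24 that was 0.02 without scaling. Bhlhe40, a repressor that macrophages need to proliferate in tissue, had 92.96 and 184 CPM, 0.98 (0.81 to 1.15), and Klf4 606 and 916 CPM, 0.60 (0.53 to 0.67). Mef2c was lower with 130.4 and 90.8 CPM, -0.52 (-0.71 to -0.33). Targets of interleukin 4 had no common direction, 8 above 0 and 5 below. Mgl2, a lectin of alternatively activated macrophages, was lower with 395 and 241 CPM, -0.72 (-0.83 to -0.60). Their median of 0.12 turned to -0.10 without scaling.

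The receptor that telmisartan blocks was barely detected in these macrophages. Agtr1a had 2 UMIs in the control pool and 0 in the telmisartan pool, Agtr1b 1 and 1, and Agtr2, the second angiotensin receptor, 0 in both. Counts this low give no fold. Pparg, the nuclear receptor on which telmisartan also acts in part, had 18 and 25 UMIs, or 3.35 and 6.82 CPM, a log2 ratio of 1.02 (0.09 to 1.98). Its partner Rxra had 19.6 and 17.5 CPM. At this depth mRNA of the angiotensin receptors was not detectable above a few molecules among 9034587.

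The rule genes share an expression pattern by the choice of the cells, and the stretches before their starts are printed so that the letters can be seen. They are the 250 bases before each start in RefSeq on GRCm38.p6, 4 promoters of 3 genes, all on the minus strand and written from 5′ to 3′. Folr2 has a pair of starts, at chr7:101857191-101857440 and chr7:101845332-101845581, Cbr2 lies at chr11:120732022-120732271 and Fcrls at chr3:87263525-87263774. These starts lie inside the gene positions given above. Each stretch therefore overlaps the position of its gene, that of Folr2 start 2 wholly. Capitals mark GAGGAA, which reads TTCCTC on the other strand and lies at the core of sites of the myeloid factor PU.1, and TGCTGA, which reads TCAGCA on the other strand and forms part of the sites of MAF factors. GAGGAA was present before Cbr2 and Fcrls, and TGCTGA before both Folr2 starts and Fcrls. Of all 32851 promoters of this length, 7639 (23.3%) held GAGGAA, 5282 (16.1%) TGCTGA and 1208 (3.68%) both. A match is a description of letters, and binding was not measured.
Folr2, start 1: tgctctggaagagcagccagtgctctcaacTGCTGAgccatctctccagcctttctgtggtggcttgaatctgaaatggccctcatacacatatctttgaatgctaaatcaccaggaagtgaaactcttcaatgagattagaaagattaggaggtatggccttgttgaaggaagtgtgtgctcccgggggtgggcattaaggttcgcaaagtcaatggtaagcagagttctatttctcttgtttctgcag
Folr2, start 2: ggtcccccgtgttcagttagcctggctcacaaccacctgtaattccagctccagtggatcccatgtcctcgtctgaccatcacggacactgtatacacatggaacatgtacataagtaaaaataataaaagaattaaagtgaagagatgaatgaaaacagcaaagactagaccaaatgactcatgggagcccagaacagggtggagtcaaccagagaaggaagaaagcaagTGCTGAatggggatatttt
Cbr2: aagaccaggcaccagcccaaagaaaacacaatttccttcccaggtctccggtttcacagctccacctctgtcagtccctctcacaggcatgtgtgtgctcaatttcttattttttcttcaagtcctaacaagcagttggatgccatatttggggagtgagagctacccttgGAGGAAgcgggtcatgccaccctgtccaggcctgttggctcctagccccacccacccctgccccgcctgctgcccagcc
Fcrls: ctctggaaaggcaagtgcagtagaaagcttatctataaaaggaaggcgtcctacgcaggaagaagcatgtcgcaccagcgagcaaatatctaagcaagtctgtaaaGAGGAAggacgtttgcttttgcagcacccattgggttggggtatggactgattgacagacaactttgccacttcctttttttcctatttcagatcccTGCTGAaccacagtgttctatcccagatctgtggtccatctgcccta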

How the data were processed

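UMIs per gene and Sample Tag reads per cell were the deposited counts, made by the authors with the BD Rhapsody pipeline on GRCm38, without normalization. All values were whole numbers, and 0.0794% of tag reads fell on tags other than 1 and 2. The tag and quality limits are in the report. Cells with no clear tag (1580) or fewer than 10 tag reads (186) were left out. Tag multiplets were 8.67% of cells within the limits, which predicts 9.51% of doublets within a tag; these were kept, and removed by Scrublet score in an alternative.

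For each pool, UMIs of its cells were added up per gene and given as CPM. Log2 ratios had exact conditional binomial intervals, CPM exact Poisson and shares Clopper-Pearson intervals, all at 95%. With 1 pool per group no test was made, and a gene was called when it passed 2-fold with at least 100 UMIs. Python 3.11.15, numpy 2.4.6, scipy 1.17.1, pandas 2.3.3, scanpy 1.11.5, matplotlib 3.10.9, R 4.3.3 and edgeR 4.0.16 were used.

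Named genes were the rule genes, the markers, genes of the lists, Mrc1, Spp1 and Nr4a3, the 10 highest and 10 lowest between pools, and the 15 highest and 10 lowest against the other Lyz2-positive cells, each with at least 200 UMIs; of the list genes, those of defining role or large size were picked after their values were seen. The cells, their rule and the lists were chosen with earlier results of these data known. Alternatives covered the tag share, gene minimum, mitochondrial limit, rule-gene and Lyz2 thresholds, proliferating cells, doublets, scalings and UMI minimum. Comparison with C1q-positive cells, cells of 5000 to 15000 UMIs and leaving out the 5 richest cells were added after seeing the data. Trajectories, other cell types and protein data were not used here. A few of the named genes and 1 marker list are not reported here.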

Additional observations from a re-analysis of the deposited data

Results flagged for a closer look

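Among the named genes, 3 had log2 ratios between the pools of opposite sign and at least 0.5 in size, with intervals off 0, in Folr2 Cbr2 Fcrls macrophages and in the other Lyz2-positive cells. These differences were not tested, and in the macrophages each rested on few cells. Ccl17 had log2 ratios of telmisartan over control of 1.58 in the macrophages and -1.81 in the others, a difference of 3.38; its ratio in the macrophages was 0.28 without the 5 richest cells of each pool and -0.98 with at least 2 of the 3 rule genes, so no direction can be read. Ifit2, an interferon-induced gene, had -0.72 and 0.58, a difference of -1.30; 5 cells held 78.05% of its UMIs in the control pool and 61.8% in the telmisartan pool, and without them the ratio was 0.081. Retnla, a secreted protein induced by interleukin 4, had 1.93 and -0.77, a difference of 2.70, from 10 control and 12 telmisartan cells, the 5 richest of which held 86.8% and 90.9% of its UMIs.

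Cells outside the rule also reached a sum of at least 3 UMIs over Cbr2, Folr2 and Fcrls, a signal in cells that the comparisons did not use. Among proliferating Lyz2-positive cells it was 198 of 853 (23.2%), at a median depth of 13935 UMIs. Among cells with a Cd3 UMI and at least 5 of Lyz2 it was 47 of 247 (19.03%), and among cells with no clear Sample Tag within the gene and mitochondrial limits 93 of 941 (9.88%). Above the mitochondrial limit it was 60 of 7056 (0.850%), and above the limit of 5000 genes 27 of 90 (30%).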

How the results depend on the processing

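Of 189 gene ratios, 183 kept their sign under each of the up to 20 alternatives that gave a value. Of 3006 values, 2276 lay within the counting interval of the reported ratio and 722 outside it with the same direction. 8 had the opposite sign, and the cause was not tested: Ccl17 (-0.98) and Retnla (-1.40) between pools in cells with at least 2 of the 3 rule genes, Ifit2 at a mitochondrial limit of 10% (0.37), after thinning (0.18) and without 5 cells (0.081), Cenpe with proliferating cells kept (0.15), Spp1 against the other Lyz2-positive cells in the telmisartan pool without scaling (0.12), and Shmt1 against them in the control pool after thinning (-0.29).

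The share of Lyz2-positive cells moved with the rule by construction. It was 16.3% in the control and 15.4% in the telmisartan pool at a sum of at least 2, 7.80% and 6.43% at 5, 8.37% and 6.81% with at least 2 of the 3 genes, 13.5% and 12.04% with proliferating cells kept, 2.85% and 2.02% after thinning, and 9.88% in the control pool at a mitochondrial limit of 10%.

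Genes past 2-fold between pools numbered 157 higher and 154 lower at a minimum of 30 UMIs, 27 and 4 at 300, 38 and 109 without scaling (median -0.29), 30 and 6 after thinning, 50 higher with at least 2 of the 3 genes, and 20 lower in cells of 5000 to 15000 UMIs. Against the other Lyz2-positive cells they numbered 288 and 281 at 30 UMIs, 108 and 103 at 300, 497 and 75 without scaling, 108 higher after thinning, 242 lower with at least 2 of the 3 genes, and 79 and 54 against cells with C1q. No paired analysis was possible because each group was 1 pool.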

Other observations

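A UMI of at least 1 of the 6 proliferation genes was found in 50% of Folr2 Cbr2 Fcrls macrophages in the control pool and 44.7% in the telmisartan pool, and in 28.2% and 27.2% of the other Lyz2-positive cells. After thinning to 2000 UMIs the shares were 15.5% and 15.2% against 10.7% and 10.99%. Iron and heme genes were above 0 between the pools in 9 of 9 tested, with a median log2 ratio of 0.25 that was 0.03 without scaling. Slc48a1, a heme transporter, had 56.4 and 80.2 CPM, Ftl1, a ferritin chain, 3967 and 4715 CPM, and Trf, the iron carrier transferrin, 92.8 and 118 CPM. Folate genes were below 0 in 7 of 8 with a median of -0.41, among them Shmt2, the mitochondrial serine hydroxymethyltransferase, with 48.6 and 32.7 CPM.

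Immediate-early genes were split between the pools, with Fos lower at 3162 and 2083 CPM and Jun at 662 and 414 CPM, and Fosb higher at 1129 and 1608 CPM and Junb at 866 and 1182 CPM. Irf4, a factor of the interleukin 4 response, had 13 UMIs in the control pool and 44 in the telmisartan pool, Id3 12 and 36, and the cytokine genes Il6 28 and 59 and Il23a 4 and 21. MHC class I genes were close to level, with H2-K1 at 1409 and 1579 CPM and B2m at 4795 and 5581 CPM, and a list median of 0.13 that was -0.10 without scaling.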
